A study of Homo sapiens with 40 samples.

Results

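The 9 renal tubule identity genes are 4 transcription factor genes of the kidney lineage (PAX8, PAX2, LHX1 and HNF4A), 4 genes whose products sit in or serve proximal tubule cells (HAVCR1, ANPEP, PDZK1 and ACSM2A) and PPARGC1A, a coactivator gene of mitochondrial metabolism. They were taken by symbol from a deposited table of 60664 genes, and 9 of 9 passed the low-count filter that left 22527 genes for testing. The libraries were made from total RNA of 786-0, an established cell line from a clear cell renal carcinoma. It was used in 2 forms, which the labels call SETD2 WT and SETD2 KO (knockout). SETD2 is the methyltransferase that trimethylates lysine 36 of histone H3. In each form, cells were left untreated and taken at day 0 (control), or were kept in DAC at 100 nM, in BMN at 10 nM, or in the combination of DAC and BMN, and were taken at days 5, 16 and 26. DAC is decitabine, a nucleoside that traps DNA methyltransferases, and BMN is BMN673 (talazoparib), an inhibitor of PARP enzymes, whose number is spelled differently once in the design text. These 20 groups of line, treatment and day held 2 libraries each, 40 in all. The labels do not say whether the 2 libraries of a group came from separate cultures, so p-values measure only the spread between such libraries. That spread was estimated for each gene over all 20 groups together. Groups whose 2 libraries lay further apart were thus tested against a shared value. A single line of each form was used, and KO status cannot be told apart from other differences between the lines. No untreated cells were taken after day 0, so in each comparison with control the treatment cannot be told apart from the time in culture, and the comparisons of a line share the same 2 control libraries.

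The proximal tubule is the nephron segment that reclaims most filtered solutes, through a brush border packed with transporters and peptidases and through energy taken largely from fatty acid oxidation. PAX2, PAX8 and LHX1 act early, when the intermediate mesoderm and the ureteric bud form and when mesenchyme turns into epithelium, and PAX8 stays on in most adult tubule cells and in renal cell carcinoma. HNF4A is needed for the proximal tubule programme in maturing nephrons, and clear cell carcinoma, thought to arise from this segment, commonly has lost much of that programme. HAVCR1 (also called KIM-1) is scarce in the healthy tubule and appears on injured proximal tubule cells and on many renal carcinomas.

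Each library held between 17833960 and 22631101 counts assigned to genes. SETD2 group means ran from 111 to 156 CPM (the count relative to the library size, which was scaled by the trimmed mean of M-values) in KO and from 115 to 175 CPM in WT, so the transcript's count did not separate the lines and does not check the edit. The kidney label was matched by PAX8, at 210 to 481 CPM in the 40 libraries. Genes of the mature nephron were mixed. The endocytic receptor gene LRP2 was at most 0.044 CPM in any group mean and UMOD, the product of the thick ascending limb, was at 0 throughout. CUBN, whose product pairs with that of LRP2, was at 0.974 CPM in WT control and 1.31 CPM in KO control. Its highest mean was 12.2 CPM, in KO at day 16 of the combination. The proximal tubule genes SLC4A4 and DPP4 reached 144 and 163 CPM. Of 12 clear cell carcinoma markers 12 were tested, with a summed level of 1390 to 5051 CPM over the groups. Not all were abundant: CA9, a hypoxia target often used as a clear cell marker, was at most 2.48 CPM, and NDUFA4L2 at most 2.63 CPM. The summed level of 16 markers of blood, endothelial and stromal cells was 7.16 to 17.8 CPM in control and BMN groups and 44.2 to 102 CPM in DAC and combination groups. In the DAC and combination groups most of the sum came from the stromal genes PDGFRB, LUM and ACTA2. The erythroid marker HBB was at 0 in every group, and the leukocyte gene PTPRC was at most 0.250 CPM. Of the endothelial markers, EMCN was at 0 in every group, while the highest group means were 2.70 CPM for PECAM1, 1.85 for PLVAP, 1.43 for KDR, 0.528 for VWF and 0.5004 for CDH5, each in a DAC or combination group. The summed level of these markers thus rose in DAC and combination groups. In those groups most of the renal tubule identity genes were lower than control, while ANPEP was higher. The part of this sum in the results below was not tested.

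The 9 genes lie on 9 chromosomes of GRCh38. PAX8 (ENSG00000125618) is at chr2:113215997-113278921 on the minus strand, PAX2 (ENSG00000075891) at chr10:100735396-100829944 on the plus strand, LHX1 (ENSG00000273706) at chr17:36936785-36944612 on the plus strand and HNF4A (ENSG00000101076) at chr20:44355700-44434596 on the plus strand. HAVCR1 (ENSG00000113249) is at chr5:157029413-157059119 on the minus strand, ANPEP (ENSG00000166825) at chr15:89784895-89815401 on the minus strand and PDZK1 (ENSG00000174827) at chr1:145670852-145708148 on the minus strand. ACSM2A (ENSG00000183747) is at chr16:20451461-20487669 on the plus strand and PPARGC1A (ENSG00000109819) at chr4:23755041-23904089 on the minus strand.

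Promoter windows, the 250 bases before a RefSeq transcription start (GRCh38.p14), were found for 7 of the 9 genes, 12 windows in all. They are described because DAC acts on DNA methylation, which is placed on the cytosine of CpG, and because HAVCR1 and PDZK1 had like profiles. Methylation itself was not measured in these libraries. The 3 windows below belong to the genes with the clearest profiles. They are written 5′ to 3′ on the gene's strand, with CpG in capitals and with bases that the counted annotation places in exons left off.
HAVCR1, chr5:157059120-157059366, minus strand: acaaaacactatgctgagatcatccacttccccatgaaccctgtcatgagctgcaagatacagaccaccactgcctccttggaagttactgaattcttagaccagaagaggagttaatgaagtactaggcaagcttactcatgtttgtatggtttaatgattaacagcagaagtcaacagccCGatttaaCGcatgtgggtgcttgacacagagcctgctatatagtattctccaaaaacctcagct
PDZK1, chr1:145707401-145707650, minus strand: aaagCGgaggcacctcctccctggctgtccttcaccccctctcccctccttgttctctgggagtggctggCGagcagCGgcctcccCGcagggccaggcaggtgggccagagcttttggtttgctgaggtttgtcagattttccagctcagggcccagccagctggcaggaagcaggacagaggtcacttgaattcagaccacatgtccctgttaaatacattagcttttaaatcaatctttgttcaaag
ANPEP, chr15:89814865-89815102, minus strand: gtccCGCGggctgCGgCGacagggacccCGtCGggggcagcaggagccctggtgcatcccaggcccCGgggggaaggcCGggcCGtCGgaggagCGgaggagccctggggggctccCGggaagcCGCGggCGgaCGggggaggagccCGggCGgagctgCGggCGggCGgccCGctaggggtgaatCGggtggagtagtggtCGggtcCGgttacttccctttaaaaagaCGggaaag
The HAVCR1 window lies just upstream of the counted gene, and the other 2 lie within the span of the counted gene, outside its exons. The full windows held 2 CpG at HAVCR1, 4 at PDZK1 and 26 at the ANPEP start shown, against a median of 11 over 35116 windows of the same length. The ANPEP window ranked above 80.4% of windows, the PDZK1 window above 29.3% and the HAVCR1 window above 14.7%. A second ANPEP start held 9 CpG, above 45.9% of windows, and a second PDZK1 start held 3. Among the other genes, PAX8 held 11 CpG and PAX2 10 and 15 at its 2 starts, HNF4A held 8 at each of its 2 starts, and PPARGC1A held 33 at a start far upstream of the counted gene and 4 at a start within it. Part of the binding motif of HNF4 (CAAAGTCCA, other strand TGGACTTTG) was searched on both strands. It matched in the window of a second PDZK1 start, reaching into exon bases not printed here, and in 0.325% of all windows. The other windows of these genes had no match.

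The genes spanned a wide range of levels. Per kilobase of exon, averaged over the 40 libraries, HAVCR1 was the most abundant at 107 CPM per kb, followed by PAX8 at 49.9 and PDZK1 at 20.1. PAX2, LHX1 and ANPEP lay between 3.51 and 5.81 CPM per kb. PPARGC1A (0.301), ACSM2A (0.181) and HNF4A (0.0245) were low, and ACSM2A and HNF4A had 0 counts in 19 of 40 libraries each. HNF4A reached the low-count filter through DAC-treated WT libraries, and ACSM2A through control libraries of both lines and WT BMN libraries. A difference between those groups and the others was thus built into their being tested.

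**Figure D1:**
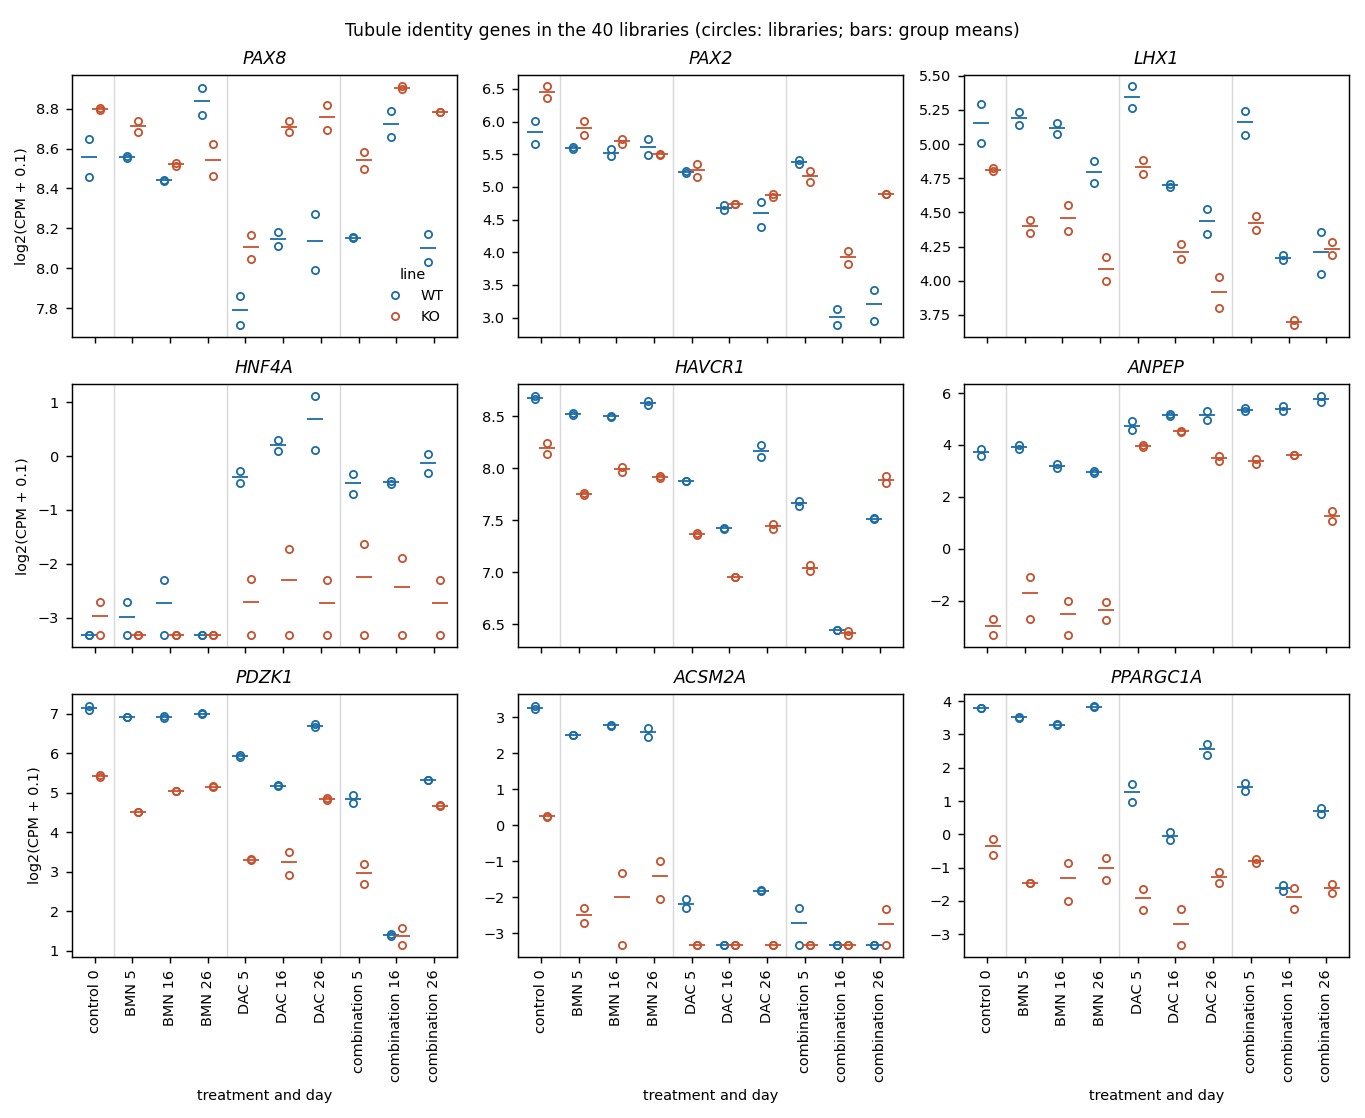
Level of each gene in each of the 40 libraries, as log2 of CPM plus 0.1 (vertical axis, own range for each gene), by treatment and day (horizontal axis), with WT in blue, KO in orange, circles for libraries and bars for group means. ANPEP in KO sits near the bottom of its panel in control and BMN and far higher in every DAC and combination library, while HAVCR1 and PDZK1 are lowest at day 16 of the combination in both lines.

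In untreated cells, the first comparison was of KO with WT at day 0. The proximal tubule members HAVCR1, ANPEP, PDZK1 and ACSM2A were lower in KO, and PAX8 and PAX2 were somewhat higher. Of the 9 genes, 2 were higher (PAX8 and PAX2) and 6 lower (LHX1, HAVCR1, ANPEP, PDZK1, ACSM2A and PPARGC1A) at an adjusted p below 0.05 by edgeR's quasi-likelihood test with Benjamini-Hochberg adjustment over all 22527 genes. Over all genes tested, 13.4% were higher and 13.9% lower. The median log2 difference was -0.49 over the 9 genes and -0.01 over all genes. The 9 genes, and the gene lists used below, were chosen with earlier results of these data known. Comparisons with all genes, here and below, therefore describe them and do not test them as sets.

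ANPEP, aminopeptidase N of the brush border, showed the widest gap. WT control libraries held 234 and 275 counts (11.8 and 14.2 CPM), and KO control libraries 1 and 0. The ratio of WT to KO was 477, with an exact 95% counting interval of 85.2 to 18870 for the pooled counts. PPARGC1A stood at 13.9 and 13.9 CPM in WT and 0.810 and 0.551 CPM in KO (log2 -4.34 ± 0.25, SE, adjusted p = 1.4e-15). PDZK1, a scaffold protein that anchors brush border transporters, stood at 146 and 137 CPM in WT and 43.3 and 42.1 CPM in KO, 3.32-fold lower. ACSM2A, a mitochondrial acyl-CoA synthetase of the proximal tubule, stood at 9.22 and 9.79 CPM in WT and 1.08 and 1.10 CPM in KO. In these 4 genes the WT and KO libraries were far apart. HAVCR1 differed less, at 414 and 406 CPM in WT and 303 and 282 CPM in KO (log2 -0.49 ± 0.05, adjusted p = 2.4e-09).

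Among the lineage factors the differences were small. PAX2 stood at 50.3 and 64.1 CPM in WT and 81.8 and 92.9 CPM in KO (log2 0.61 ± 0.12, adjusted p = 9.4e-05). PAX8 stood at 351 and 401 CPM in WT and 446 and 444 CPM in KO (log2 0.24 ± 0.08, adjusted p = 0.016). LHX1 stood at 32.1 and 39.2 CPM in WT and 27.8 and 28.2 CPM in KO (log2 -0.35 ± 0.11, adjusted p = 0.015). The PAX8 and LHX1 calls were weak. PAX8 missed the threshold without WT control replicate 1 (adjusted p = 0.31), KO control replicate 1 (0.069) or KO control replicate 2 (0.072), and LHX1 without WT control replicate 2 (0.41), KO control replicate 1 (0.088) or KO control replicate 2 (0.084). HNF4A had 0 and 0 counts in WT and 1 and 0 in KO, and no fold is given. Proximal tubule genes outside the 9 were not uniformly lower in KO. Of 27 tested genes of brush border and transport, 5 were higher and 6 lower, against 13.4% and 13.9% over all genes. SLC13A3, a dicarboxylate transporter gene, was at 17.0 CPM in KO against 3.68 CPM in WT (adjusted p = 4.1e-14), and SLC2A9 at 1.77 against 0.331 CPM (9.2e-06). The proximal tubule metabolism genes ACSM2B and PRODH2 went the other way. ACSM2B was at 0.137 CPM in KO against 3.10 CPM in WT, and PRODH2 at 0.220 against 2.13 CPM.

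In DAC groups most of the 9 genes were lower than in the untreated control and ANPEP was higher. At day 5 in WT, 2 of 9 were higher than control (HNF4A and ANPEP) and 6 lower, against 15.6% higher and 12.2% lower over all genes. At day 5 in KO, 1 was higher (ANPEP) and 6 lower, against 19.5% and 16% over all genes. PAX8, PAX2, HAVCR1, PDZK1, ACSM2A and PPARGC1A were the 6 lower genes in both lines. The calls of HNF4A in WT and of ACSM2A in both lines are not independent of the low-count filter, as stated above. At day 16, 9 of 9 passed in WT (33.5% of all genes passed) and 7 of 9 in KO (37.7%). At day 26, 9 of 9 passed in WT (31.9%) and 7 of 9 in KO (47.2%), where PAX8 and HNF4A did not pass on either day.

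With BMN alone, few of these genes differed from control in WT and more did in KO. In WT, 0 of 9 passed at day 5 (0.186% of all genes) and 0 of 9 at day 16 (0.684%), by edgeR. At day 26, 3 of 9 passed (23%): PAX8 was higher, and LHX1 and ANPEP were lower. In KO, 5 of 9 were lower at day 5 (11.7% of all genes passed), 6 at day 16 (25.5%) and 6 at day 26 (33.1%). PAX2, LHX1, HAVCR1, PDZK1 and ACSM2A were lower in KO on each of the 3 days, and PAX8 on days 16 and 26. These calls are not tests of whether the lines differ in their response, which is given further down.

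Under the combination ANPEP was again higher than control and PAX2, HAVCR1, PDZK1 and ACSM2A lower on every day in both lines. At day 16 the fitted falls of PAX2, LHX1, HAVCR1 and PDZK1 were larger than those under DAC in both lines, while PAX8 lay above control without passing and PPARGC1A in KO fell less than under DAC. In WT, 8 of 9 passed at day 5 (39.5% of all genes), 8 at day 16 (43%) and 9 at day 26 (41.1%). In KO, 7 of 9 passed at day 5 (49.2%), at day 16 (42.6%) and at day 26 (34.7%). With backgrounds this high, a count of passing genes says little by itself, and the sizes are given gene by gene below.

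**Figure D2:**
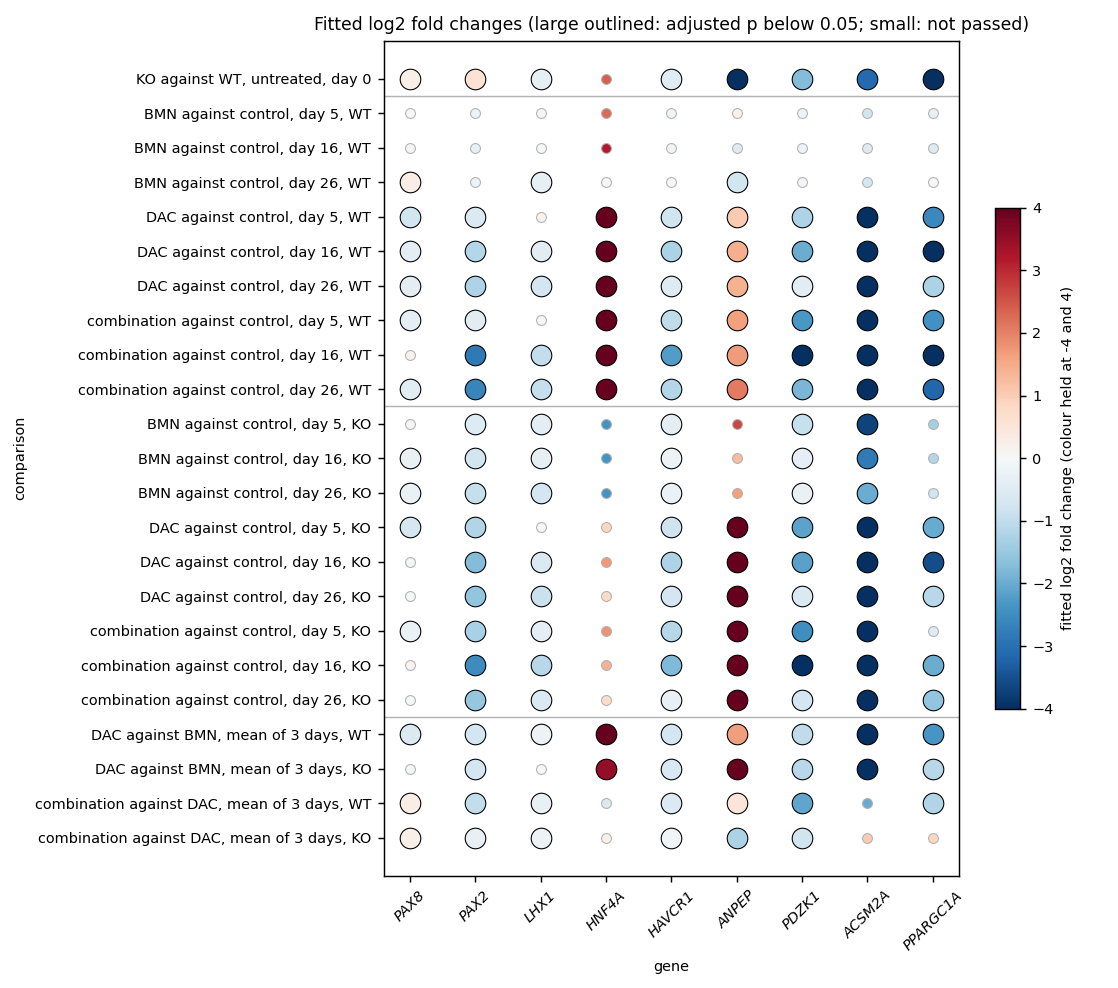
Fitted log2 fold change (colour, held at -4 and 4) of each of the 9 genes (columns) in the named comparisons (rows). Large outlined circles passed at an adjusted p below 0.05 and small ones did not. ANPEP is red and PAX2, HAVCR1 and PDZK1 are blue in every comparison of DAC or the combination with control. Values for HNF4A, for ACSM2A, and for ANPEP in KO rest on groups at or near 0 and depend on the prior count.

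PAX8, the most widely kept lineage factor of the tubule, was lower than control at day 5 of DAC in both lines. In WT it went from 351 and 401 CPM in control to 233 and 210 CPM at day 5, then 290 and 276 CPM (day 16) and 255 and 309 CPM (day 26). In KO it went from 446 and 444 CPM to 288 and 264 CPM at day 5, and was at 411 and 426 CPM at day 16 and 414 and 451 CPM at day 26. The libraries of KO at days 16 and 26 thus lay close to those of the KO control (log2 -0.09 ± 0.08 and -0.04 ± 0.08, adjusted p = 0.4 and 0.68). In WT the gene was still lower than control at day 26 (log2 -0.42 ± 0.08, adjusted p = 6.2e-05). Under DAC, averaged over the 3 days, PAX8 was 1.41-fold higher in KO than in WT (adjusted p = 1.7e-11), in a comparison in which 49.2% of all genes passed, and this level difference holds the 1.18-fold excess of untreated KO. The response itself did not differ past the threshold between the lines (adjusted p = 0.065). Under the combination PAX8 was at 442 and 403 CPM at day 16 in WT, which did not pass against control, and at 262 and 288 CPM at day 26, which did. In KO the combination libraries were at 362 and 384 CPM at day 5, 481 and 477 CPM on day 16, and 440 and 441 CPM on day 26.

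The antisense gene PAX8-AS1 overlaps PAX8 on the other strand and was higher than control in every DAC and combination group. Its mean went from 2.07 CPM in WT control to 15.2 CPM at day 5 of DAC, 15.8 at day 16 and 7.66 at day 26. In KO it went from 1.75 CPM to 24.4, 19.0 and 18.8 CPM. Under the combination it was at 13.7, 16.4 and 9.20 CPM in WT and 17.4, 8.004 and 4.63 CPM in KO on those days. It stayed high in KO at days 16 and 26 of DAC, where PAX8 was near control, and at day 16 of the combination both genes had means above control. In BMN it stayed between 2.11 and 3.96 CPM over both lines. Reads of PAX8 and PAX8-AS1 are kept apart only by the strand setting of the authors' counting.

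PAX2, a partner of PAX8 in early nephron formation, fell under DAC and fell furthest under the combination. In WT it went from 50.3 and 64.1 CPM in control to 37.0 and 38.0 CPM at day 5 of DAC, 24.9 and 26.2 CPM at day 16 and 20.9 and 27.2 CPM at day 26. In KO it went from 81.8 and 92.9 CPM to 40.8 and 35.6, 26.5 and 26.5, and 28.8 and 29.6 CPM on those days. No DAC library overlapped the control libraries of its line. Under the combination WT reached 8.67 and 7.28 CPM at day 16 and 7.66 and 10.7 CPM at day 26, 7.18-fold and 6.23-fold below control. KO reached 16.2 and 14.0 CPM at day 16 (5.77-fold below control) and stood at 29.6 and 29.7 CPM at day 26. In KO under BMN alone PAX2 was below the day 0 control, at 59.9, 51.8 and 45.1 CPM (means at days 5, 16 and 26).

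LHX1, a LIM homeobox factor of nephron patterning, did not pass at day 5 of DAC in either line (adjusted p = 0.21 in WT and 0.92 in KO) and was lower later. WT libraries were at 32.1 and 39.2 CPM in control, 42.8 and 38.3 at day 5, 26.1 and 25.6 at day 16 and 20.2 and 23.0 at day 26. KO libraries were at 27.8 and 28.2 CPM in control, 29.4 and 27.4 at day 5, 19.2 and 17.8 at day 16 and 13.8 and 16.2 at day 26. Day 26 was 1.65-fold below control in WT (adjusted p = 3e-06) and 1.87-fold below it in KO (9.7e-08). LHX1 was lower with BMN alone too, at 26.1 and 29.3 CPM on day 26 in WT and 15.9 and 18.0 CPM in KO. The divergent transcript LHX1-DT ranged from 5.21 to 15.9 CPM over group means, lowest in KO at day 16 of the combination, where LHX1 was lowest as well.

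HNF4A, the nuclear receptor of the mature proximal tubule, appeared at low levels under DAC in WT. WT control libraries held 0 and 0 counts, while DAC libraries held 14 and 13 at day 5, 21 and 24 at day 16 and 21 and 46 at day 26. With the floor of 3 counts per library, DAC at days 5, 16 and 26 was at least 4.33-fold, 6.88-fold and 9.92-fold higher than control. The highest group mean was 1.52 CPM, so the transcript stayed scarce. WT combination libraries held 10 to 20 counts each, 83 over the 6 libraries, against 3 over 6 WT BMN libraries. KO libraries held 8 counts over 6 DAC libraries, 9 over 6 combination libraries, 0 over 6 BMN libraries and 1 over the 2 controls. Under DAC the 6 WT libraries held 139 counts against those 8 in KO. The gene passed the low-count filter through DAC-treated WT libraries, so no p-value is given for this difference between the lines. The antisense gene HNF4A-AS1 had 0 counts in 40 of 40 libraries.

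HAVCR1 and PDZK1 both fell under DAC, with their lowest means at day 16 and higher ones at day 26. HAVCR1 libraries in WT went from 414 and 406 CPM to 235 and 236 at day 5 of DAC, 170 and 172 at day 16 and 298 and 275 at day 26. In KO they went from 303 and 282 CPM to 166 and 164, 124 and 124, and 171 and 177 CPM. PDZK1 in WT went from 146 and 137 CPM to 59.8 and 61.5 CPM, 35.7 and 36.5 CPM, and 106 and 101 CPM on the same days. In KO it went from 43.3 and 42.1 CPM to 9.67 and 9.87, 7.52 and 11.2, and 29.3 and 28.1 CPM. In KO the PDZK1 libraries of days 5 and 16 overlapped. No DAC library of either gene reached the control libraries of its line.

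The combination deepened the fall of both genes at day 16. PDZK1 dropped to 2.51 and 2.61 CPM in WT (48 and 52 counts, 1.81% of the control mean) and to 2.13 and 2.90 CPM in KO (39 and 51 counts, 5.90%). The fits gave log2 -5.79 ± 0.14 in WT (adjusted p = 3.1e-27) and -4.09 ± 0.14 in KO (5.7e-22). At day 26 PDZK1 was back at 28.0% of control in WT and 59.5% in KO. HAVCR1 dropped to 86.9 and 86.8 CPM in WT (21.2% of the control mean) and 84.0 and 86.5 CPM in KO (29.2%). At day 26 it stood at 184 and 182 CPM in WT (44.6%) and 231 and 243 CPM in KO (81.1%). At day 26 of the combination both KO libraries therefore lay above both WT libraries, the reverse of the order in untreated cells. From day 5 to day 26 of the combination, HAVCR1 rose 1.80-fold in KO (adjusted p = 7.1e-15) and fell 1.11-fold in WT (0.025). In that comparison 35.9% of all genes passed in WT and 42.7% in KO.

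BMN alone left both genes nearer to control. HAVCR1 means under BMN were 362 to 396 CPM in WT and 216 to 254 CPM in KO. PDZK1 means were 120 to 128 CPM in WT, none of which passed, and 22.7, 32.7 and 35.5 CPM in KO at days 5, 16 and 26, against 42.7 CPM in the KO control. Across the 40 libraries the log2 CPM of HAVCR1 and PDZK1 had a Pearson correlation of 0.949, the highest among the 36 pairs of the 9 genes, given as a description of libraries that share lines and treatments.

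**Figure D3:**
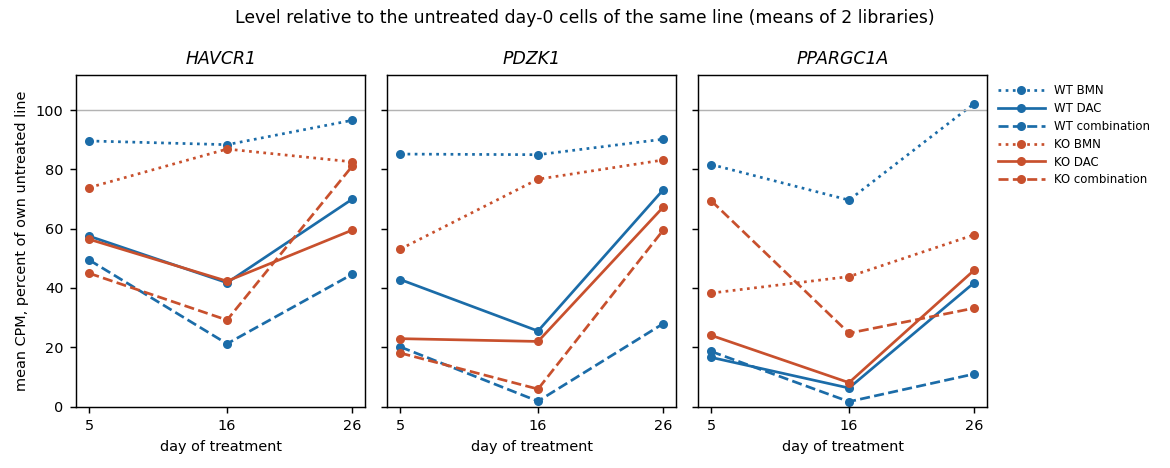
Mean CPM of HAVCR1, PDZK1 and PPARGC1A as a percentage of the untreated day-0 cells of the same line (vertical axis) at days 5, 16 and 26 (horizontal axis), for WT (blue) and KO (orange) under BMN (dotted), DAC (solid) and the combination (dashed). Each point is the mean of 2 libraries. PDZK1 under the combination falls to 1.81% in WT and 5.90% in KO at day 16, and HAVCR1 in KO returns to 81.1% at day 26.

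**Figure D4:**
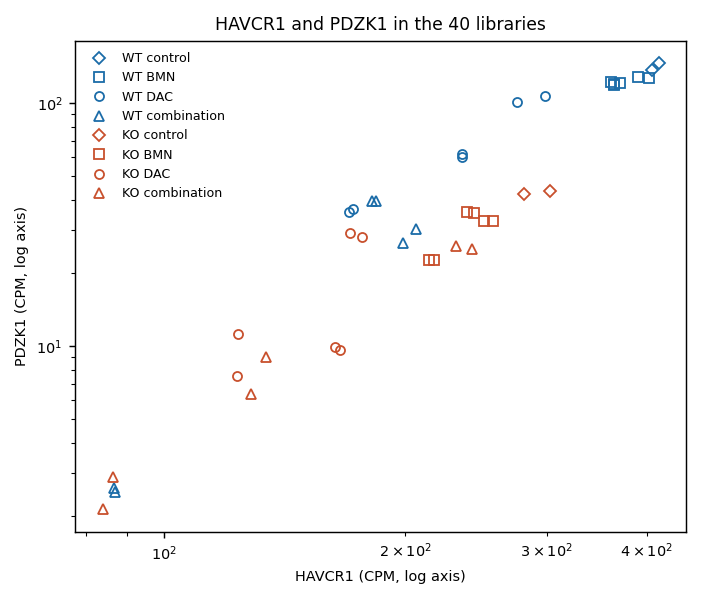
HAVCR1 (horizontal axis) against PDZK1 (vertical axis), both in CPM on log axes, with 1 marker for each of the 40 libraries. Controls lie at the upper right of each line's points and the day 16 combination libraries of both lines at the lower left, at 84.0 to 86.9 CPM of HAVCR1 and 2.13 to 2.90 CPM of PDZK1.

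PDZK1P1, a pseudogene copy of PDZK1, followed the parent at a far lower level, from 1.55 CPM in WT control to 0.0512 CPM at day 16 of the combination. Reads shared between PDZK1 and its copies could not be split with certainty. The counted reads of PDZK1P1 were few beside those of PDZK1. Reads left uncounted because they fit both genes were not examined.

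ANPEP was the gene that rose with DAC in both lines. In KO, where the controls held 1 and 0 counts, DAC libraries held 290 and 285 counts at day 5, 422 and 444 at day 16 and 201 and 223 at day 26. These are 15.9 and 15.2, 23.2 and 22.7, and 10.3 and 11.9 CPM, beside 11.8 and 14.2 CPM in untreated WT cells. The ratio to the KO control was 571 at day 5, 840 at day 16 and 406 at day 26, with exact 95% counting intervals from 102, 150 and 72.6 upward. KO libraries under BMN held 0 to 7 counts, and none of the 3 days passed against control. In WT, ANPEP went from 11.8 and 14.2 CPM to 29.95 and 23.5 CPM at day 5 of DAC, 36.2 and 34.6 at day 16 and 31.3 and 39.1 at day 26. The WT rise was 2.05-fold at day 5 (adjusted p = 1.4e-06) and 2.72-fold at day 16 (8.7e-10).

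The combination split the lines for ANPEP. In WT it gave higher levels than DAC alone, at 42.7 and 39.3 CPM on day 5, 45.02 and 39.0 on day 16 and 50.6 and 58.6 on day 26. In KO it gave lower levels, at 199 and 170 counts on day 5 (mean 10.2 CPM), 12.2 and 12.0 CPM on day 16 and 2.61 and 1.99 CPM on day 26. At day 26 the KO level was thus 4.44-fold below that of day 5 (adjusted p = 3e-10). Under BMN alone the WT level was lower at day 26 than in control, at 7.44 and 7.86 CPM (log2 -0.77 ± 0.17, adjusted p = 0.0011).

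ACSM2A and PPARGC1A, the metabolic members, fell steeply under DAC in WT. ACSM2A in WT went from 183 and 189 counts in control to 2 and 3 at day 5 of DAC, 0 and 0 at day 16 and 4 and 4 at day 26. Day 16 of DAC was at least 67.7-fold below control, and days 16 and 26 of the combination at least 61.9-fold and 69.7-fold. BMN left WT at 5.59, 6.71 and 5.86 CPM (means at days 5, 16 and 26), against 9.51 CPM in control, and none of these passed. In KO, from 20 and 20 counts in control, 0 counts were found in the 6 DAC libraries, and at least 6.72-fold is the bound at day 5. KO under BMN held 2 and 1 counts at day 5, 0 and 6 at day 16 and 3 and 8 at day 26, lower than control on each day. ACSM2B, a near-identical neighbour, paralleled it at 3.10 CPM in WT control and 0.0464 CPM at day 5 of DAC, and reads of the pair may be shared.

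PPARGC1A encodes PGC-1 alpha, which drives mitochondrial and fatty acid oxidation genes together with nuclear receptors. In WT it went from 13.9 and 13.9 CPM to 1.86 and 2.74 CPM at day 5 of DAC, 0.787 and 0.948 CPM at day 16 and 6.49 and 5.11 CPM at day 26. Under the combination it went to 2.80 and 2.36, 0.209 and 0.251, and 1.64 and 1.41 CPM. It thus shared the low point at day 16 with HAVCR1 and PDZK1. WT under BMN stayed at 9.57 to 14.4 CPM in each library. In KO the control held 15 and 10 counts and the other libraries 0 to 10, so falls there rest on few counts. The fall at day 5 of DAC in KO (log2 -2.03 ± 0.53, adjusted p = 0.0028) missed the threshold without KO control replicate 1 (0.057) or KO DAC day 5 replicate 2 (0.062).

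Comparing DAC with BMN on the same days removes the gap in time from day 0. In WT, averaged over the 3 days, 2 of 9 genes were higher under DAC (HNF4A and ANPEP) and 7 lower, against 23.3% higher and 19.4% lower over all genes. Their median log2 difference was -0.73, and -0.01 over all genes. The WT calls of HNF4A and ACSM2A are again not independent of the low-count filter. In KO, 2 were higher (HNF4A and ANPEP) and 5 lower (PAX2, HAVCR1, PDZK1, ACSM2A and PPARGC1A), against 28.5% and 23% over all genes, with a median of -0.63 against 0.03. PDZK1 was 2.02-fold lower in WT (adjusted p = 4.3e-17) and 2.15-fold lower in KO (4.5e-16). HAVCR1 was 1.66-fold lower in WT and 1.55-fold lower in KO. ANPEP was 3.18-fold higher in WT (adjusted p = 2.4e-17). PAX8 was 1.502-fold lower in WT (3.4e-13) and did not pass in KO (log2 -0.07 ± 0.04, adjusted p = 0.21), and LHX1 did not pass in KO either (log2 0.01 ± 0.07, 0.96). The HNF4A call in KO rests on 8 counts in 6 libraries against 0 in 6 (adjusted p = 0.037), and leaving out any of the 6 BMN libraries gave 0.058 to 0.06. Without KO DAC day 5 replicate 2, day 16 replicate 2 or day 26 replicate 1 it could not be tested. ACSM2A in KO could no longer be called without KO BMN day 16 replicate 2, which held 6 counts. PPARGC1A in KO (adjusted p = 0.019) missed the threshold when any of 4 libraries was left out, at 0.055 to 0.19: KO DAC day 5 replicate 2, KO DAC day 16 replicate 2, KO BMN day 16 replicate 2 and KO BMN day 26 replicate 2. DESeq2 gave it 0.051.

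Averaged over the 3 days, 5 of the 9 genes were lower under the combination than under DAC alone in each line. In WT, 2 of 9 were higher under the combination than under DAC (PAX8 and ANPEP) and 5 lower (PAX2, LHX1, HAVCR1, PDZK1 and PPARGC1A), against 10.2% and 12.8% over all genes. In KO, 1 was higher (PAX8) and 5 lower (PAX2, LHX1, HAVCR1, ANPEP and PDZK1), against 10.9% and 11.8%. PDZK1 was 4.28-fold lower in WT (adjusted p = 1.4e-22) and 1.75-fold lower in KO (2.3e-09). PAX2 was 1.96-fold lower in WT and 1.23-fold lower in KO. Single days did not all follow these means. In KO at day 26 HAVCR1 was higher under the combination (231 and 243 CPM against 171 and 177), as was LHX1 (19.3 and 18.1 CPM against 13.8 and 16.2), and PAX2 was level (means of 29.6 and 29.2 CPM). In WT at day 5 the PAX2 mean was 41.6 CPM under the combination and 37.5 CPM under DAC. PAX8 was 1.23-fold higher in WT and 1.16-fold higher in KO. ANPEP went in opposite directions, 1.42-fold higher in WT (6.6e-06) and 2.40-fold lower in KO (1.6e-11). The LHX1 call in KO (adjusted p = 0.027) missed the threshold when any of 5 libraries was left out (0.052 to 0.11): KO DAC day 5 replicate 1, day 16 replicate 1 or day 26 replicate 2, or the combination day 5 replicate 2 or day 26 replicate 2. ACSM2A could not be tested here because several of its groups were at 0.

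Within DAC, day 26 was compared with day 5. In WT, 5 of 9 genes were higher at day 26 (PAX8, HAVCR1, ANPEP, PDZK1 and PPARGC1A) and 2 lower (PAX2 and LHX1), against 12.6% and 9.14% over all genes. In KO, 2 were higher (PAX8 and PDZK1) and 3 lower (PAX2, LHX1 and ANPEP), against 18.1% and 17.8%. PDZK1 rose 1.71-fold in WT (adjusted p = 1.9e-07) and 2.94-fold in KO (1.8e-12), and LHX1 fell 1.87-fold and 1.89-fold. PPARGC1A rose 2.50-fold in WT (2.2e-05). In WT the rises of PAX8 (1.27-fold, 0.0011) and ANPEP (1.32-fold, 0.036) missed the threshold without WT DAC day 5 replicate 2 (0.1 and 0.48) or WT DAC day 26 replicate 2 (0.2 and 0.45). In KO the falls of PAX2 and ANPEP missed it without KO DAC day 5 replicate 1 (0.13 and 0.068) or KO DAC day 26 replicate 1 (0.084 and 0.15).

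Whether the lines responded differently was tested directly, as the log2 response in KO minus that in WT, averaged over the 3 days. For DAC, ANPEP responded more in KO (7.57 ± 0.52, adjusted p = 1.1e-12, from a KO control at 1 count, so that the size depends on the prior count). PAX2 (-0.49 ± 0.14, 0.018) and PDZK1 (-0.41 ± 0.12, 0.019) fell further in KO. Over all genes, 3.66% responded higher and 5.17% lower in KO. The PAX2 call was lost without WT control replicate 1 (0.29) or KO control replicate 2 (0.18), and the PDZK1 call without KO control replicate 1 (0.088) or replicate 2 (0.055). HAVCR1 did not pass (-0.08 ± 0.06, 0.48), nor did PAX8 (0.26 ± 0.09, 0.065), and PAX8 passed without WT control replicate 1 (0.027) or WT DAC day 26 replicate 2 (0.019). For BMN, 1.23% of all genes passed, and of the 9 only ACSM2A did (-2.18 ± 0.52, 0.033), falling further in KO. For the combination, 14.2% of all genes passed, and 4 of the 9 did, each with a positive difference: HAVCR1 (0.40 ± 0.06, 9.4e-06), ANPEP (5.81 ± 0.65, 3.4e-08), PDZK1 (0.88 ± 0.13, 7.5e-06) and PPARGC1A (2.47 ± 0.44, 0.00012). For ANPEP this is a larger rise in KO. For HAVCR1, PDZK1 and PPARGC1A, whose means lay below control in both lines, it is a smaller fall in KO over the 3 days together. At day 5 alone HAVCR1 stood at 49.4% of control in WT and 44.9% in KO, and PDZK1 at 20.1% and 18.05%. The smaller fall of HAVCR1 and PDZK1 in KO was thus seen at days 16 and 26. PPARGC1A held only 25 counts over the 2 KO control libraries. A fall as deep as that of WT at day 16 (13.9 to 0.230 CPM) could not have been resolved there. All of these responses use the same control libraries of each line.

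Levels under treatment were also compared between the lines. PDZK1 was lower in KO than in WT by 4.41-fold under DAC (adjusted p = 3.8e-24), by 4.13-fold under BMN (5.4e-25) and by 1.80-fold under the combination (6.7e-10), averaged over the 3 days. HAVCR1 was lower in KO by 1.48-fold under DAC, 1.59-fold under BMN and 1.07-fold under the combination (0.012). The combination value merges opposite days, with KO lower at day 5 (131 against 203 CPM) and higher at day 26 (237 against 183 CPM). In the BMN comparison 48.1% of all genes passed, and in the combination comparison 49.4%. PAX2 did not differ past the threshold under DAC or BMN (0.18 and 0.15) and was 1.74-fold higher in KO under the combination. That mean merges opposite days too. KO was lower at day 5 (35.8 against 41.6 CPM) and higher at days 16 (15.1 against 7.97 CPM) and 26 (29.6 against 9.16 CPM). PDZK1 under the combination was lower in KO at day 5 (7.70 against 28.5 CPM) and day 26 (25.4 against 39.6 CPM). At day 16 it was level (2.52 against 2.56 CPM).

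For each gene the 20 groups were put in order of their means, as a description. Sorting by these means and the depth of counting both bear on how often neighbours overlap. No share over all genes was computed. For HAVCR1 4 of the 19 neighbouring pairs in its order overlapped in their libraries, and for PDZK1 5 of 19. Both orders ran from WT control (410 and 142 CPM) to KO at day 16 of the combination (85.3 and 2.52 CPM). PAX8 overlapped in 14 pairs, LHX1 in 13, PAX2 in 11, PPARGC1A in 10 and ANPEP in 9, while ACSM2A (15) and HNF4A (17) overlapped mostly through shared zeros. PAX8 ran from 221 CPM in WT at day 5 of DAC to 479 CPM in KO at day 16 of the combination, a 2.17-fold range. PAX2 ran from 7.97 CPM in WT at day 16 of the combination to 87.3 CPM in KO control, and LHX1 from 12.9 CPM in KO at day 16 of the combination to 40.5 CPM in WT at day 5 of DAC.

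The genes whose log2 CPM followed each member most closely over the 40 libraries are given as a description. HAVCR1 was followed by ALDH1A1 (Pearson r 0.969), a retinaldehyde dehydrogenase gene, by ZBTB18 (0.969) and by VLDLR (0.967). PDZK1 was followed by the kinase genes SGK2 (0.968) and DAPK1 (0.959) and, like HAVCR1, by ALDH1A1 (0.952). PPARGC1A was followed by EHHADH (0.952), a peroxisomal fatty acid oxidation gene, by WNT2B (0.948) and by NMU (0.947). ANPEP was followed by LINC03060 (0.970), KCNK6 (0.965) and VILL (0.965). PAX2 was followed by KLHL36 (0.938), PTH1R (0.929) and ATP11A (0.922), LHX1 by PKDCC (0.926), GLIS2 (0.924) and MLLT6 (0.922), and ACSM2A by SNX30 (0.913), POGLUT2 (0.908) and VAV3 (0.906). For HNF4A the closest were TUBB4A (0.879), CREB3L1 (0.876) and CCL5 (0.873), and for PAX8 they were PCGF3 (0.817), ARID1B (0.805) and PHKA2 (0.799). Such values rest largely on the few steps between treatments and lines that the libraries share.

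Other genes of the tubule, in lists that leave out the 9, did not fall as a block under DAC. Of 27 tested genes of brush border and transport, 12 were higher and 11 lower under DAC than under BMN in WT, and 13 higher and 9 lower in KO. Over all genes, 23.3% were higher and 19.4% lower in WT, and 28.5% and 23% in KO. The organic cation transporter gene SLC22A2 was at 5.22 against 0.270 CPM in WT (adjusted p = 2.6e-20), the urate transporter gene SLC2A9 at 4.03 against 0.372 CPM and the water channel gene AQP1 at 2.99 against 0.296 CPM. In KO, AQP1 was at 6.45 against 0.303 CPM and the sodium-proton exchanger gene SLC9A3 at 3.12 against 0.376 CPM. These brush border and transport genes rose from a low base. The phosphate and urate transporter genes SLC17A3 and SLC17A1 went with the falling genes: at day 5 of DAC in KO they were at 0.0541 against 1.42 CPM and 0.108 against 1.80 CPM in control.

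Of 20 tested genes of proximal tubule metabolism, 8 were higher and 7 lower under DAC than under BMN in WT, and 7 higher and 5 lower in KO. The shares over all genes were 23.3% and 19.4% in WT, and 28.5% and 23% in KO. CYP24A1, which breaks down vitamin D, was at 12.5 against 0.662 CPM in WT (adjusted p = 7.7e-22), and HPD and MIOX, enzymes of tyrosine and inositol breakdown, rose in KO to 1.10 from 0.0254 CPM and to 1.46 from 0.278 CPM. Of 26 tested PGC-1 partners and fatty acid oxidation genes, 3 were higher and 6 lower in WT, and 2 higher and 14 lower in KO, with medians of -0.03 and -0.14. In KO the named ones fell by small amounts: PPARGC1B from 5.01 to 3.40 CPM, ACAA2 from 25.0 to 17.3 CPM and EHHADH from 19.1 to 14.2 CPM. PPARGC1A itself was 5.10-fold lower in WT and 2.16-fold lower in KO in this comparison.

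Of 15 tested lineage factors, 8 were higher and 4 lower in WT, and 6 higher and 4 lower in KO. This compares with 23.3% and 19.4% of all genes in WT, and 28.5% and 23% in KO. GATA3, a factor of the distal nephron and collecting duct, rose to 4.24 from 0.859 CPM in WT and to 2.09 from 0.0249 CPM in KO. In untreated cells, POU3F3, a factor of distal nephron development, was at 6.76 CPM in WT against 0.0276 CPM in KO (adjusted p = 6.3e-12). Of 15 tested genes of other nephron segments, 11 were higher and 2 lower in WT, and 10 higher and 2 lower in KO, with SCNN1G, a subunit of the epithelial sodium channel, and SLC12A3, the sodium-chloride cotransporter of the distal tubule, among those that rose (SLC12A3 to 6.01 from 0.235 CPM in WT and to 3.87 from 0.255 CPM in KO).

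Injury and repair genes other than HAVCR1 split. Of 22 tested, 13 were higher and 8 lower under DAC than under BMN in WT, and 14 higher and 8 lower in KO. All genes gave 23.3% higher and 19.4% lower in WT, and 28.5% and 23% in KO. KRT19, a keratin of simple epithelia, rose to 99.0 from 16.5 CPM in WT and to 122 from 12.7 CPM in KO, and LCN2 (NGAL), a secreted injury marker, to 13.6 from 0.367 CPM and 2.85 from 0.0253 CPM. HAVCR1, the other classical injury marker, thus fell where LCN2 and KRT19 rose. CD24, a surface protein of tubule progenitors, was at 53.3 against 441 CPM at day 5 of DAC in KO (adjusted p = 7.6e-20). With the combination set against DAC in WT, brush border and transport genes had 1 higher and 11 lower of 27, against 10.2% higher and 12.8% lower over all genes. CD24 and CDH6, a cadherin of the developing tubule, fell to 149 from 349 CPM and to 115 from 239 CPM. In the same comparison VCAM1, an adhesion molecule of injured tubule cells, rose to 164 from 68.6 CPM. Clear cell carcinoma markers were mostly higher under DAC than under BMN, 11 of 12 in WT and 10 of 12 in KO, and the blood, endothelial and stromal markers gave 7 of 9 tested higher in each line.

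**Figure D5:**
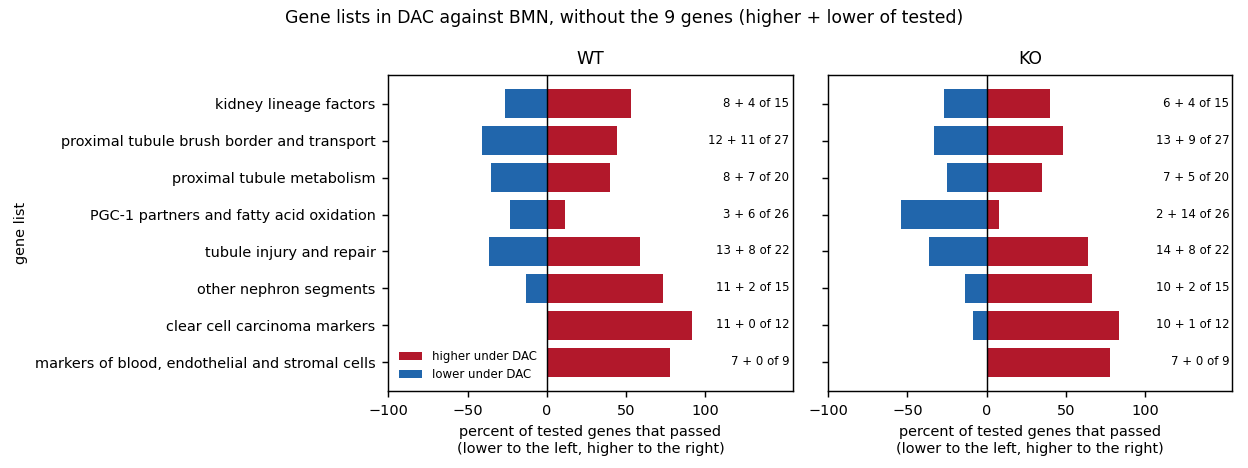
Share of tested genes in each of 8 lists (rows, without the 9 genes) that were higher (red, to the right) or lower (blue, to the left) under DAC than under BMN at an adjusted p below 0.05, in percent, for WT and KO. Numbers give higher plus lower of those tested, such as 2 + 14 of 26 for PGC-1 partners and fatty acid oxidation in KO. Over all genes, 23.3% were higher and 19.4% lower in WT, and 28.5% and 23% in KO.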

How the data were processed

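The authors deposited 1 table of raw counts per gene for 40 libraries, made with featureCounts 1.5.0-p1 with strand setting 1 and a minimum mapping quality of 20 on GRCh38 with Ensembl 104 annotation, per the file headers. The submitters' processing notes also name FastQC, Trimmomatic and Partek. The alignment names in the deposited header carry the word STAR, with no version or settings. Per the labels' protocols, total RNA went into KAPA RNA HyperPrep libraries. Library totals were 17833960 to 22631101 counts, and intervals and floors cover counting error only.

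The counts of all 40 libraries were fitted together with edgeR 4.0.16 (R 4.3.3), with trimmed-mean scaling, 1 mean per group and the quasi-likelihood test, after a low-count filter (minimum count 10, minimum total 15) that left 22527 genes. The fit had 20 residual degrees of freedom. It gave each gene a spread shared by all groups. The groups were not equally tight: the chi-square per gene between the libraries of a group ran from 1.655 to 19.64. P-values were adjusted by the Benjamini-Hochberg method over all genes tested in each of 35 contrasts, with a threshold of 0.05. Log2 CPM used a prior count of 2, and folds against groups at 0 used a floor of 3 counts per library. The script was tested on simulated data. The gene lists and the 9 genes were chosen with earlier results of these data known. Named from each list are the 3 largest changes that passed at 1 CPM or more in the higher group, and the 3 genes most alike to each of the 9 by Pearson correlation, with antisense genes and close copies. Some genes that this rule selects are not reported here. Alternatives were DESeq2 1.42.0, its size factors, no filter, fewer libraries, a replicate block and each library left out. Promoter windows came from RefSeq.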

Additional observations from a re-analysis of the deposited data

Results flagged for a closer look

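The response to treatment, set against each line's own day 0 control and averaged over the 3 days, differed between KO and WT in 8 cases by the test of the difference itself (edgeR's quasi-likelihood test, Benjamini-Hochberg adjusted). For DAC the difference in log2 response, KO minus WT, was 7.57 for ANPEP, -0.49 for PAX2 and -0.41 for PDZK1. For BMN it was -2.18 for ACSM2A. For the combination it was 5.81 for ANPEP, 0.88 for PDZK1, 0.40 for HAVCR1 and 2.47 for PPARGC1A. ANPEP in KO starts from 1 count in 2 control libraries, and PPARGC1A in KO from 15 and 10 counts, so the sizes for these genes are imprecise. From so few counts a fall of PPARGC1A in KO as deep as that in WT could not have been resolved. On the mean of 3 days PDZK1 fell further in KO under DAC and less far in KO under the combination. At day 5 of the combination, though, it stood at 20.1% of control in WT and 18.05% in KO, and HAVCR1 at 49.4% and 44.9%. The DAC and combination responses use the same 2 control libraries of each line.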

How the results depend on the processing

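None of the 1280 single-gene values recomputed under the alternatives changed direction past the threshold: 1230 kept their side of it, 48 lost the call and 2 gained one. The alternatives covered untreated KO against WT, DAC against control at day 5, DAC against BMN, combination against DAC, day 26 against day 5 of DAC and the response to DAC. The other comparisons, among them those of BMN or the combination with control, were not recomputed. Values that an alternative could not give were not counted. The number of the 9 genes that passed went from 7 to 4 for DAC against BMN in KO, from 7 to 4 for day 26 against day 5 of DAC in WT and from 3 to 1 for the KO minus WT response to DAC when only the libraries of the comparison were fitted. With each library left out in turn, that number was 4 to 7 for DAC against BMN in KO (4 without KO BMN day 16 replicate 2), 3 to 5 for day 26 against day 5 in KO (3 without KO DAC day 5 replicate 1 or day 26 replicate 1) and 1 to 4 for the response (1 without KO control replicate 2). Over all genes, fitting only the libraries of the comparison lowered the calls from 6136 to 3181 for KO against WT, from 6272 to 2958 for DAC at day 5 in WT, from 4898 to 1493 for day 26 against day 5 of DAC in WT and from 1988 to 971 for the response. Day 26 against day 5 of DAC in WT gave 2759 calls without WT DAC day 5 replicate 1, 3104 without its replicate 2 and 3071 without WT DAC day 26 replicate 1. The response gave 1208 calls without WT control replicate 1 and 3260 without WT control replicate 2. Replicate numbers did not pair libraries: deviations of same-numbered libraries correlated at -0.17 to 0.24 over 190 pairs of groups, with 10 over 0.1. With the replicate block the number of the 9 genes that passed stayed at 8 for KO against WT and at 9 for DAC against BMN in WT, and no single-gene call changed. The ending of the alignment names, added as a term after seeing the data, changed none of these calls either. Depth limits HNF4A, ACSM2A, and ANPEP and PPARGC1A in KO, whose low groups held 0 to 15 counts a library.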
